A study of Mus musculus with 8 samples.

Results

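The epidermal growth factor receptor gene Egfr, the noncoding genes Egfros and Gm39584 that lie within it, and 7 further genes of ErbB signalling were examined in 8 mouse livers. The 10 genes were taken by name as rows of a deposited table of 40838 genes, and 9 of them had enough counts to be tested among 17438 genes. The receptors were Egfr, Erbb2 and Erbb3, the ligands Hbegf, Tgfa and Areg, and the feedback regulators Errfi1 and Lrig1. Egfros was included because it was the 1 gene that edgeR called as different between the groups across all genes. Values of the 10 genes in that comparison are therefore given as a description, without p-values.

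All animals were C57BL/6 mice kept on a NASH diet, which produces fatty liver with inflammation and fibrosis, for 16 weeks. After 7 weeks, 4 of them received AAV-TBG-Lpcat3 and 4 received AAV-TBG-eGFP as the control, and the diet went on for 9 weeks. AAV is a viral vector, TBG is a promoter active in hepatocytes, and Lpcat3 encodes an enzyme that inserts polyunsaturated fatty acids into membrane phospholipids. RNA came from whole liver, so each level is that of all its cell types, and fewer cells of a type cannot be told apart from less RNA per cell. No source used here gives the age or sex of the animals, nor do the labels state that each library was a separate animal, so p-values measure the spread between these samples.

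ErbB receptors are tyrosine kinases of the cell surface. Ligands of the EGF family are made as membrane proteins and shed by proteases, receptors pair upon binding, and the ERK, PI3K and STAT pathways carry the signal. Feedback proteins made in response then block the kinase or send the receptor for degradation. Hepatocytes carry much EGFR and ERBB3, and the pathway is known for its part in liver regeneration.

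The 8 libraries held 22433625 to 25651874 counts. Lpcat3 was at 274 to 465 CPM (counts relative to the library's total, scaled by the TMM method) in the Lpcat3 group and at 133 to 173 CPM in the eGFP group, which fits the labels. Its log2 fold change, 1.25 (SE 0.17), had an edgeR adjusted p of 0.164. The DESeq2 adjusted p was 9.77e-09. In edgeR it was 0.0234 with library totals in place of TMM and 0.0477 without Lpcat3 replicate 1. The other alternatives, by edgeR or limma-voom, gave an adjusted p of 0.0649 to 0.456. Lpcat3 replicate 3 and eGFP replicate 3 lay at opposite ends of the first principal component (51.0 and -46.1; 40.9% of the variance), and values without both are given below. Hepatocyte markers summed to 59549 to 98942 CPM. Y-linked genes summed to 199 to 246 CPM and Xist, which is expressed in females, was at 0.275 to 3.84 CPM, the pattern of male liver in all 8 libraries. The sample codes in the titles begin with 1290, 1317, 1344 or 1345, and no label explains these numbers. They were unevenly divided between the groups, so within-code values are given where they bear on a result.

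Egfros and Gm39584 are both transcribed from the strand opposite to Egfr. In the GENCODE M21 annotation of GRCm38, the first intron of the longest Egfr transcript, which has 28 exons, is 106.3 kb long. The RefSeq start sites of Gm39584 lay 41.2 and 37.1 kb, and those of Egfros 78.5 kb, downstream of the start of Egfr, within that intron. No annotated Egfr exon overlapped either gene. An exon of a shorter Egfr transcript, 41437 to 41541 bases downstream of the Egfr start, lay beside the 41.2 kb start site of Gm39584. The authors' counts were made on another build, GRCm39, and no source used here says whether strand was used in counting. Reads of unspliced Egfr RNA and of these antisense genes can therefore not be told apart with certainty.

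**Figure D1:**
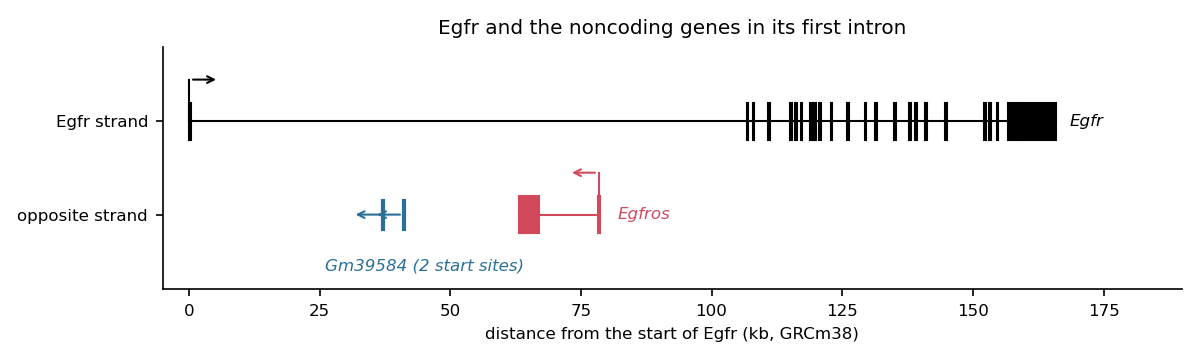
Map of Egfr and the noncoding genes within it, with the distance from the start of Egfr in kb on the x axis (GRCm38). Blocks are annotated exons of the longest Egfr transcript (black) and of Egfros (red), blue bars are the 2 start sites of Gm39584, and arrows give the direction of transcription. Both noncoding genes sit in the 106.3 kb first intron and point towards the start of Egfr.

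The promoter windows of these 3 genes, from 250 bases before to 50 bases after the start, are shown because the antisense genes moved together in the counts below while Egfr did not. They come from RefSeq on GRCm38.p6, which matched 8 of the 10 genes (Erbb3 and Hbegf were not among them), and are written 5′ to 3′ on the strand of the gene. The first start site of each gene is used. Capitals mark the motif matches named after the sequences.
Egfr, chr11:16751953-16752252, plus strand: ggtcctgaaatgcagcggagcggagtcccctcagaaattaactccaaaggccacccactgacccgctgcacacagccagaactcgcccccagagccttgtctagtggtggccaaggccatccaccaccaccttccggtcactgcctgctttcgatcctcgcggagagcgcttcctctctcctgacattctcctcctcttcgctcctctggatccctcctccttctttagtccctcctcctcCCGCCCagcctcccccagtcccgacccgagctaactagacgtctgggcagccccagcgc
Gm39584, chr11:16793400-16793699, minus strand: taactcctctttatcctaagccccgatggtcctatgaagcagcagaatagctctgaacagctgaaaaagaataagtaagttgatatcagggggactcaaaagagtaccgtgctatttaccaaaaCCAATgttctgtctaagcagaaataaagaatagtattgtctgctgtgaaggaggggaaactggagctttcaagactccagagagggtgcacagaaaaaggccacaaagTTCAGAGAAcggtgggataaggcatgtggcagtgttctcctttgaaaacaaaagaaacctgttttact
Egfros, chr11:16830701-16831000, minus strand: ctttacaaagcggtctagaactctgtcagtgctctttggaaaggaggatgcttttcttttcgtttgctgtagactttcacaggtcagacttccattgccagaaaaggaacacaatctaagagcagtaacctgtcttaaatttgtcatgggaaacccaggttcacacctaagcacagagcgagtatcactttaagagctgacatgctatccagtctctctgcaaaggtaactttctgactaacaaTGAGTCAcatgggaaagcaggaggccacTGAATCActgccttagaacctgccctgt

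The Egfr window had a GC content of 62.3% and 15 CpG dinucleotides. Those of Gm39584 and Egfros had 42.3% and 44.7%, with 3 CpG each, against a median GC content of 52.7% over 32851 promoter windows of the same length. The search covered both strands for 12 motifs. These were the HNF1 palindrome, the nuclear receptor direct repeats DR1 and DR4, the TATA box TATAAA, the CCAAT box CCAAT, the GC box GGGCGG, the E-box CACGTG, the ONECUT core ATCAAT, the C/EBP site TTGCNNAA, the STAT site TTCNNNGAA, the AP-1 site TGANTCA and the CRE TGACGTCA. Egfr held 1 GC box on the minus strand, a motif found in 35.7% of all windows. Gm39584 held 1 CCAAT box (37.4% of windows) and 1 STAT match (8.30%). The N of the searched AP-1 pattern stands for any base. Egfros held 2 matches to it, TGAGTCA beginning at -6 and TGAATCA beginning at 22 relative to the start. At least 1 such match was in 7.81% of windows and 2 or more in 0.460%. The windows shown of Egfros and Gm39584 had none of the 12 motifs in common. The window of the other annotated Egfros start, 72 bases away, held 1 STAT match at 38 besides the 2 AP-1 matches, and so had the STAT motif in common with the Gm39584 window. The matches shown do not overlap each other.

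Egfros (NCBI gene 319954) was at 130, 84.2, 181 and 139 CPM in Lpcat3 replicates 1 to 4 and at 27.3, 19.2, 17.3 and 13.5 CPM in eGFP replicates 1 to 4. The lowest Lpcat3 value, 84.2 CPM, was above the highest eGFP value, 27.3 CPM. The mean was 134 ± 39.7 against 19.3 ± 5.79 CPM (SD, n = 4 each), and the log2 fold change was 2.79 (SE 0.27). This is the value that chose the gene.

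Gm39584 (NCBI gene 105243852), a predicted long noncoding RNA gene, was at 251, 109, 380 and 258 CPM in Lpcat3 replicates 1 to 4 and at 63.6, 32.1, 28.5 and 31.1 CPM in eGFP replicates 1 to 4. The groups did not overlap here either, and the Lpcat3 libraries stood in the same order as for Egfros, with replicate 3 highest and replicate 2 lowest. The mean was 249 ± 111 against 38.9 ± 16.6 CPM (SD, n = 4 each), a 6.42-fold higher level with a log2 fold change of 2.68 (SE 0.40). The difference for Gm39584 was thus close in size to the 6.91-fold one of Egfros.

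Egfr (NCBI gene 13649) did not follow them. It was at 288, 1099, 680 and 507 CPM in Lpcat3 replicates 1 to 4 and at 310, 367, 442 and 590 CPM in eGFP replicates 1 to 4. The lowest of all libraries was Lpcat3 replicate 1, and the highest was Lpcat3 replicate 2, which had the lowest Egfros and Gm39584 levels of its group. The mean was 643 ± 343 against 427 ± 121 CPM (SD, n = 4 each), with a log2 fold change of 0.59 (SE 0.37).

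**Figure D2:**
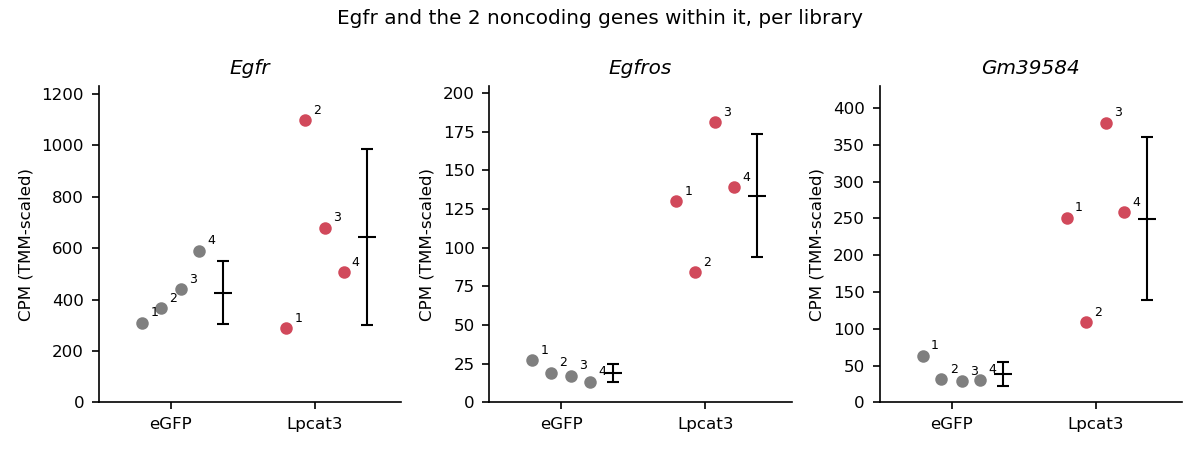
Level of Egfr, Egfros and Gm39584 in CPM (y axes, each from 0) in the eGFP (grey) and Lpcat3 (red) libraries. Points are libraries with their replicate number, and bars beside them are the mean ± SD (n = 4 each). The groups are apart for Egfros and Gm39584 and overlap for Egfr, where Lpcat3 replicate 2 reaches 1099 CPM.

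The Egfr difference changed when single libraries were left out and when the sample codes were taken into account. Without Lpcat3 replicate 2 its log2 fold change was 0.20, and without Lpcat3 replicate 1 it was 0.83. Among libraries coded 1290, Egfr was at 288 CPM in the Lpcat3 library and at 310 and 367 CPM in the eGFP libraries. Those coded 1345 had 507 CPM in the Lpcat3 library and 590 CPM in the eGFP library, and the 2 Lpcat3 libraries coded 1344, a number with no eGFP library, had 680 and 1099 CPM. Egfr was thus lower in the Lpcat3 library in both codes that hold both groups. With codes 1290 and 1317 set against 1344 and 1345 as a term of the model, the log2 fold change of Egfr was -2.9e-05 (SE 0.19). This division follows the order of the numbers, as no label explains them. It is close to that of the groups, with 1 Lpcat3 library in the first part and 1 eGFP library in the second. Differences by code and by group can therefore not be fully told apart.

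The antisense genes had higher values in the Lpcat3 libraries in the same divisions, although edgeR's call of Egfros was lost with the code division in the model, where its log2 fold change was 2.94 (SE 0.32). Among libraries coded 1290, the Lpcat3 library had 130 CPM of Egfros and the eGFP libraries 27.3 and 19.2 CPM. For code 1345 the values were 139 and 13.5 CPM. Gm39584 was at 251 against 63.6 and 32.1 CPM in code 1290, and at 258 against 31.1 CPM in code 1345. With codes 1290 and 1317 pooled (1 Lpcat3 library), Egfros differed by 2.63 on the log2 scale and Gm39584 by 2.69. With codes 1344 and 1345 pooled (1 eGFP library), these differences were 3.24 and 2.82. Leaving out each library in turn moved the log2 fold change between 2.61 and 3.0 for Egfros and between 2.41 and 3.03 for Gm39584. Without both libraries numbered 3, a choice made after seeing the data, the values were 2.56 and 2.28.

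Ratios of counts within a library do not depend on how libraries are scaled. Gm39584 had 194, 130, 210 and 185 counts per 100 Egfros counts in Lpcat3 replicates 1 to 4, and 233, 167, 165 and 230 in eGFP replicates 1 to 4. These ratios overlapped between the groups, with means of 180 ± 34.8 and 199 ± 37.7 (SD, n = 4 each), while both levels differed more than 6-fold. Egfros had 44.9, 7.66, 26.6 and 27.5 counts per 100 Egfr counts in the Lpcat3 libraries and 8.80, 5.23, 3.91 and 2.30 in the eGFP libraries. In 3 of 4 Lpcat3 libraries the ratio was above every eGFP library, and Lpcat3 replicate 2, the one with the most Egfr, was below eGFP replicate 1. The mean ratio was 26.7 ± 15.2 against 5.06 ± 2.77 (SD, n = 4 each). The ratio of Gm39584 to Egfr showed the same overlap, at 9.94 counts per 100 in Lpcat3 replicate 2 and 20.5 in eGFP replicate 1.

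**Figure D3:**
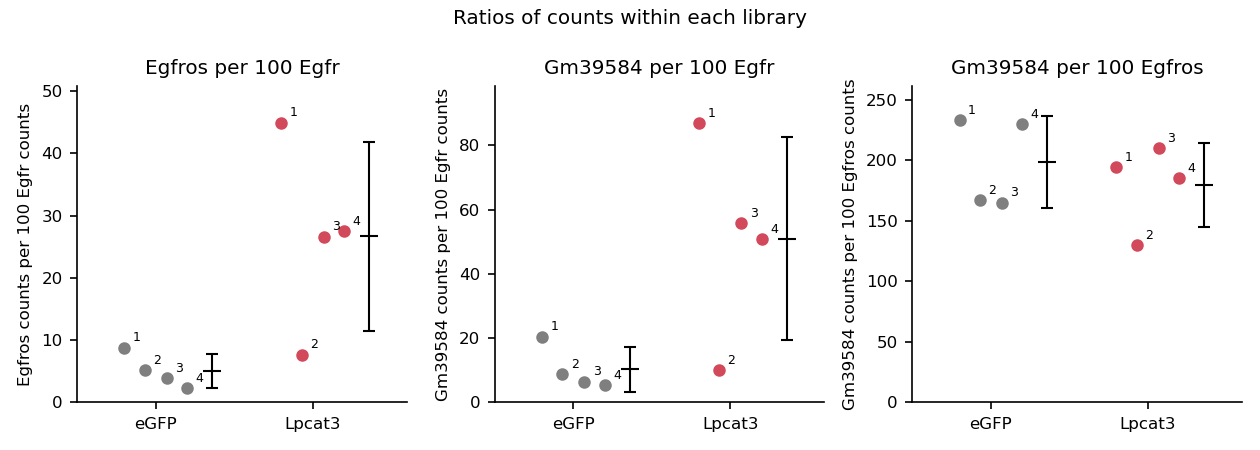
Counts of one gene per 100 counts of another within each library (y axes, each from 0), for Egfros to Egfr, Gm39584 to Egfr and Gm39584 to Egfros. Points are libraries with their replicate number, in grey for eGFP and red for Lpcat3, and bars are the mean ± SD (n = 4 each). The ratios to Egfr are higher in 3 of 4 Lpcat3 libraries than in any eGFP library, and the ratio between the antisense genes stays between 130 and 233.

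Genes beside Egfr were taken by position, 5 on each side. Of these, 5 passed the filter on low counts, and edgeR called 0 (adjusted p of 0.579 or more), as did DESeq2 (0). In the series 0.00573% of genes were called by edgeR. At an unadjusted p under 0.05 there was 1 neighbour, against 8.48% of all genes. It was Plek, a protein of platelets and leukocytes, with 12.7 ± 2.99 against 21.8 ± 10.3 CPM (SD, n = 4 each) and an edgeR adjusted p of 0.579. The log2 fold change of Plek, -0.78, became -0.31 without both libraries numbered 3. Sec61g, a subunit of the protein channel of the endoplasmic reticulum, was at 15.5 ± 1.06 against 14.8 ± 0.472 CPM, and Ppp3r1, the regulatory subunit of calcineurin, at 53.6 ± 2.32 against 56.3 ± 2.95 CPM. Cnrip1 was at 1.19 ± 0.161 against 1.23 ± 0.313 CPM and Fbxo48 at 0.676 ± 0.363 against 0.792 ± 0.291 CPM. The noncoding gene Gm39583, 1 of the 5 neighbours under the filter, lies on the other side of the Egfr start. It had 9, 13, 14 and 9 counts in Lpcat3 replicates 1 to 4 and 0, 1, 1 and 6 in eGFP replicates 1 to 4, without overlap. Tested with no filter on low counts, its log2 fold change was 2.56 (SE 0.666; edgeR adjusted p = 0.628).

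Errfi1 (NCBI gene 74155) encodes MIG6, which binds and blocks the kinase domain of active ErbB receptors. It was at 1193, 1324, 1570 and 946 CPM in Lpcat3 replicates 1 to 4 and at 811, 841, 351 and 477 CPM in eGFP replicates 1 to 4. Every Lpcat3 library was above every eGFP library. The mean was 1258 ± 260 against 620 ± 243 CPM (SD, n = 4 each), a 2.03-fold higher level with a log2 fold change of 1.02 (SE 0.28). Among libraries coded 1290, Errfi1 was at 1193 CPM in the Lpcat3 library and at 811 and 841 CPM in the eGFP libraries. Those coded 1345 had 946 CPM in the Lpcat3 library and 477 CPM in the eGFP library. With codes 1290 and 1317 pooled, which hold 1 Lpcat3 library, the log2 difference was 0.94. With codes 1344 and 1345 pooled, which hold 1 eGFP library, it was 1.39. Leaving out each library in turn gave 0.82 to 1.20, and leaving out both libraries numbered 3 gave 0.70.

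Lrig1, a membrane protein that promotes the degradation of ErbB receptors, was at 23.6 to 27.6 CPM in the Lpcat3 group and at 22.6 to 27.3 CPM in the eGFP group. The log2 fold change of Lrig1 was 0.01 (SE 0.08), and its groups overlapped.

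The other receptors overlapped between the groups. Erbb3, which has little kinase activity of its own and signals in pairs, was at 192 to 229 CPM in the Lpcat3 group and 178 to 248 CPM in the controls, with a log2 fold change of 0.03 (SE 0.11). Erbb2, which binds no ligand and serves as a partner of the other receptors, was at 1.49 to 2.83 CPM and 1.89 to 2.21 CPM (log2 fold change 0.13, SE 0.21). Its counts, 31 to 64 per library, limit the precision of that value.

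Of the ligands, Hbegf was the 1 whose groups did not overlap. Hbegf (NCBI gene 15200), a heparin-binding ligand of EGFR and ERBB4, was at 0.689, 0.928, 0.671 and 0.358 CPM in Lpcat3 replicates 1 to 4 and at 0.982, 1.06, 1.04 and 0.950 CPM in eGFP replicates 1 to 4. The Lpcat3 libraries were lower, but the gap between 0.928 and 0.950 CPM is small and the counts were 9 to 21 against 23 to 28. The log2 fold change was -0.61 (SE 0.28), and -0.40 without Lpcat3 replicate 4. Tgfa, an EGFR ligand made by hepatocytes, was at 29.0 to 41.7 CPM against 34.4 to 59.1 CPM, and eGFP replicate 3 alone was above 41.7 CPM. Its log2 fold change of -0.13 (SE 0.19) became 0.09 without that library. Areg, an EGFR ligand, had 0 to 8 counts in the Lpcat3 libraries and 0 to 15 in the eGFP libraries, too few to be tested.

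**Figure D4:**
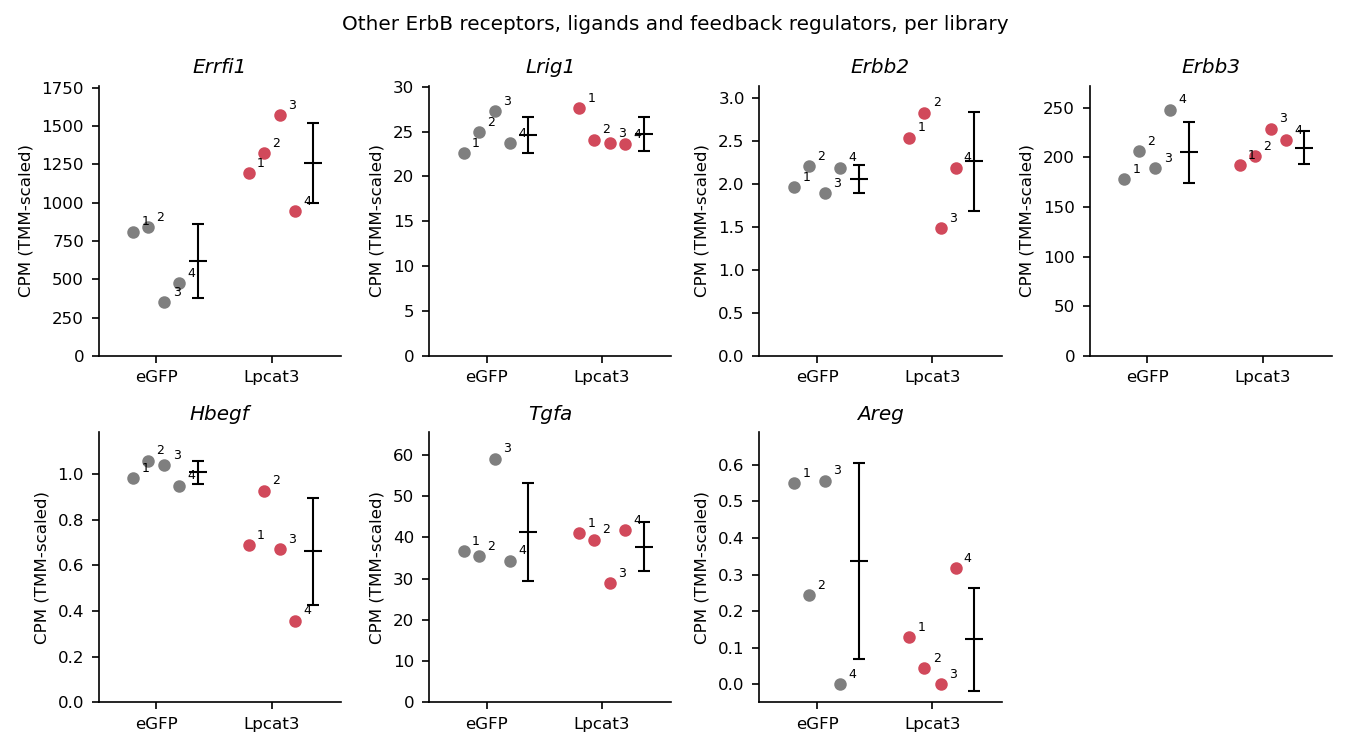
Level in CPM (y axes) of the other receptors, ligands and feedback regulators in the eGFP (grey) and Lpcat3 (red) libraries. Points are libraries with their replicate number and bars are the mean ± SD (n = 4 each); the lower bar of Areg passes below 0. Errfi1 is higher in every Lpcat3 library, Hbegf is lower by a small gap, and the other 5 overlap.

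In all, 4 of the 9 tested genes had groups that did not overlap, 3 higher and 1 lower, against 4.16% of all genes. Those higher were Egfros, Gm39584 and Errfi1, and the lower was Hbegf. In edgeR 1 of the 9 was called, Egfros, against 0.00573% of all genes, and in DESeq2 2 were, Egfros and Gm39584, against 0.292%. Omitting 1 library at a time ended the edgeR call of Egfros in 6 of 8 cases, for Lpcat3 replicates 3 and 4 and eGFP replicates 1 to 4. Adding the replicate number or the code division to the model, testing with no filter on low counts, or leaving out both libraries numbered 3 also ended it. These counts come from the comparison with which the genes were chosen.

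A further 89 genes of the pathway were taken as a list by role, of which 84 were tested. None was called by edgeR (0 higher and 0 lower; adjusted p of 0.564 or more) or by DESeq2 (0). At an unadjusted p under 0.05, edgeR counted 2 higher, against 3.3% of all genes, and 13 lower, against 5.18% of all genes. The log2 fold change was below 0 for 60 of the 84 genes (71.4%), with a median of -0.08, where it was below 0 for 51.5% of all genes with a median of -0.0065. The groups did not overlap for 1 gene higher and 3 lower, against 1.93% and 2.24% of all genes. In each sublist up to 3 genes with the smallest p-values are named below, and none of them passed the test.

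Genes induced by growth factors had 12 of 15 values below 0 and a median log2 fold change of -0.41. The transcription factors Etv5, Klf10 and Junb were at 6.94 ± 1.25 against 9.50 ± 0.633 CPM, 22.3 ± 6.11 against 33.8 ± 3.45 CPM and 12.0 ± 2.69 against 18.1 ± 4.17 CPM (SD, n = 4 each; edgeR adjusted p = 0.564 for each). Klf10 did not overlap between the groups. Without both libraries numbered 3, the log2 fold changes of Etv5, Klf10 and Junb moved from -0.45, -0.60 and -0.59 to -0.38, -0.37 and -0.44. Among ERK feedback inhibitors and general inhibitors of RAS, listed together, 8 of 11 values were below 0, with a median of -0.23. Dusp6, a phosphatase that inactivates ERK, was at 44.1 ± 6.61 against 59.3 ± 7.64 CPM, and Spred2, an inhibitor of RAS and RAF signalling, at 60.2 ± 6.90 against 75.5 ± 7.49 CPM (edgeR adjusted p = 0.564 for both). Tob1, an antiproliferative protein that ERK phosphorylates, had the higher mean in the Lpcat3 group, 188 ± 32.9 against 134 ± 27.4 CPM, without overlap (edgeR adjusted p = 0.565). Without both libraries numbered 3, the log2 fold changes of Dusp6, Spred2 and Tob1 moved from -0.43, -0.33 and 0.48 to -0.25, -0.25 and 0.22. The feedback gene Errfi1 was higher in the group in which Dusp6 and Spred2 had lower means and Tob1 a higher one. A link between these values was not tested.

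Genes of receptor downregulation had 15 of 18 values below 0, with a median of -0.08. The phosphatase Ptprj, which dephosphorylates EGFR, was at 159 ± 12.0 against 183 ± 4.70 CPM without overlap (edgeR adjusted p = 0.565). Sh3kbp1, an adaptor of receptor endocytosis, was at 6.29 ± 0.955 against 9.13 ± 2.55 CPM (0.579 for the edgeR adjusted p), and Cbl, a ubiquitin ligase of EGFR, at 44.1 ± 3.39 against 54.0 ± 10.8 CPM (0.595). With codes 1344 and 1345 pooled, Ptprj, Sh3kbp1 and Cbl differed by -0.16, 0.00 and -0.01 on the log2 scale. Some other genes of this sublist were then above 0. Without both libraries numbered 3, the log2 fold changes of Ptprj, Sh3kbp1 and Cbl moved from -0.20, -0.54 and -0.29 to -0.25, -0.31 and -0.13. Of 7 tested genes of ligand release or its control, 6 had values below 0. They include Rhbdf2, a partner of the shedding protease ADAM17, at 14.7 ± 1.99 against 18.9 ± 2.56 CPM, and Adam12 at 1.37 ± 0.336 against 2.26 ± 0.556 CPM (edgeR adjusted p = 0.564 for both). Without both libraries numbered 3, the log2 fold change moved from -0.36 to -0.23 for Rhbdf2 and from -0.72 to -0.44 for Adam12.

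Adaptors and proximal kinases were divided, with 12 values above and 15 below 0 and a median of -0.03. Plcg1, a phospholipase recruited by EGFR, was at 57.4 ± 6.57 against 47.2 ± 7.99 CPM, the docking protein Gab2 at 10.3 ± 1.05 against 13.2 ± 2.83 CPM and Stat5a at 25.5 ± 3.18 against 30.8 ± 7.20 CPM (edgeR adjusted p = 0.585 to 0.637). Erbb4, the remaining receptor, had 19.3 ± 3.93 against 16.5 ± 4.37 CPM, with an edgeR adjusted p of 0.748. The ligands Btc, at 6.55 ± 0.929 against 9.62 ± 5.56 CPM, and Nrg1, at 12.7 ± 6.68 against 25.3 ± 21.2 CPM, had eGFP SDs larger than their differences (edgeR adjusted p = 0.648 and 0.662). Without both libraries numbered 3, Btc and Nrg1 each had a log2 fold change of 0.03. Those of Plcg1, Gab2 and Stat5a then moved from 0.28, -0.36 and -0.27 to 0.20, -0.21 and -0.03. Of the 17 genes named from the list, 17 kept their sign with codes 1290 and 1317 pooled and 14 with codes 1344 and 1345 pooled. The genes were named by p-values from these same libraries. Such agreement is therefore partly built in and is no separate evidence.

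**Figure D5:**
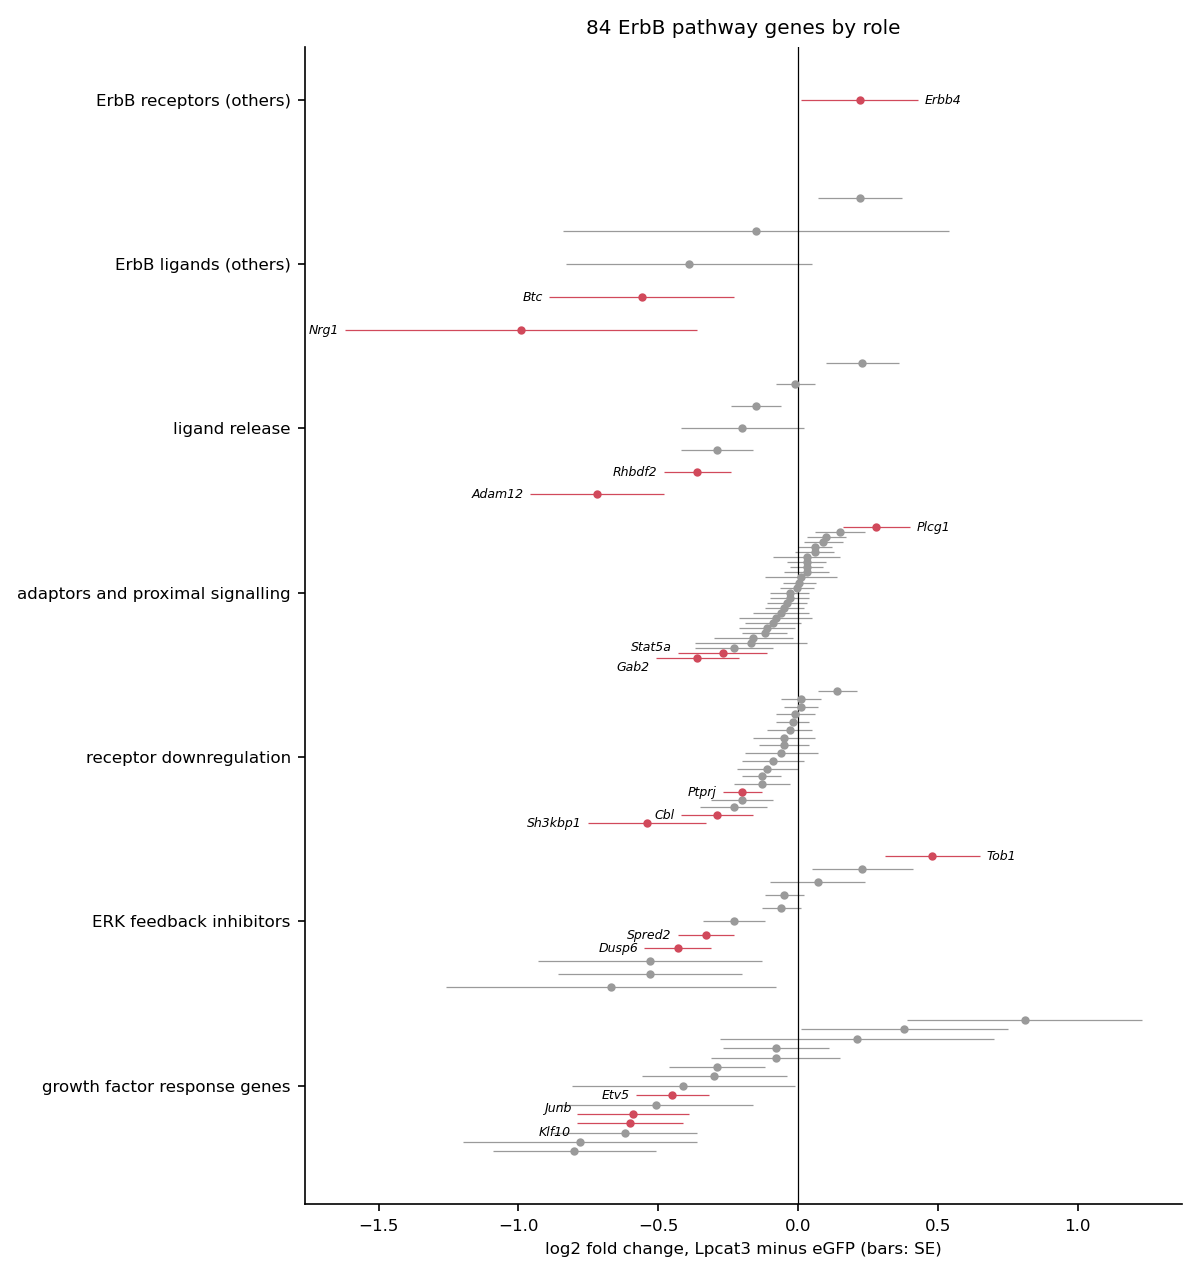
Log2 fold change, Lpcat3 minus eGFP (x axis, bars are the SE), of the 84 tested pathway genes, grouped by role on the y axis and ordered by value within a group. Red points with names are the genes with the smallest p-values of each group. Most values of the growth factor response genes lie left of 0, and no gene passed the test.

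Marker lists of other cell types stood beside these values as follows. None of their 46 tested genes passed (0 called by edgeR, adjusted p of 0.564 or more), and the counts below are to be read against the 51.5% of all genes with values below 0. Macrophage markers were lower in 8 of 8 cases, with a summed level of 238 to 311 CPM in the Lpcat3 group and 322 to 521 CPM in the eGFP group. T, NK and B cell markers were lower in 7 of 7 tested cases (4.18 to 5.16 against 4.17 to 10.5 CPM), and endothelial markers in 8 of 8 (419 to 511 against 492 to 550 CPM). Stellate cell and fibroblast markers, which share Dcn with the pathway list, were lower in 5 of 8 (464 to 761 against 612 to 741 CPM). Cholangiocyte markers were higher in 6 of 8 (39.6 to 129 against 39.5 to 89.7 CPM) and hepatocyte markers in 6 of 7 with a row (67133 to 98942 against 59549 to 86033 CPM). No marker of these lists with a row was at 0 in all libraries. Their part in the values of Errfi1, Hbegf and the pathway genes was not tested.

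Genes with the pattern most like that of Egfros were sought among 12650 genes with a mean of at least 1 CPM and no predicted symbol. Likeness was the root mean square difference of log2 CPM over the 8 libraries, each gene centred on its own mean. The nearest were Onecut1 (0.69), Cish (0.75), Noct (0.79), Btbd19 (0.80) and Plk3 (0.82), where a gene with the same level in every library would be at 1.44. Gm39584, outside that search for its predicted symbol, was nearer than any of them at 0.26. Onecut1, a hepatocyte transcription factor, was at 59.5 ± 17.5 against 15.3 ± 3.11 CPM (SD, n = 4 each). Cish, an inhibitor of cytokine signalling, was at 16.3 ± 6.02 against 5.59 ± 1.91 CPM, and Noct, a gene with a daily rhythm in liver, at 56.6 ± 22.1 against 21.4 ± 8.69 CPM. Such genes share the group difference that chose Egfros, so no test of them is given.

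For Egfr the nearest were Cyp2d34 (0.23), Cyp2d9 (0.27), C6 (0.28), Cyp2d12 (0.28) and Ccn6 (0.28), where a gene with the same level in every library would be at 0.60, and Gm39584 was at 1.47. Cyp2d9, a cytochrome P450, was at 511 ± 222 against 317 ± 162 CPM, and C6, a complement protein, at 243 ± 101 against 178 ± 43.8 CPM (SD, n = 4 each). The Cyp2d genes are near copies of each other, so their counts are uncertain. No gene was among the 5 nearest of both Egfros and Egfr, which the distances above already imply.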

How the data were processed

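The authors deposited raw counts, whole numbers of reads per NCBI gene in 1 column per library. Per the labels' protocols, RNA was depleted of ribosomal RNA and stranded single-end libraries were sequenced; the submitters' processing notes name bcl2fastq 2.20, DESeq2 and GRCm39. No source used here gives the aligner, counting program or strand setting. Columns were joined to samples by the codes in the titles (0 columns unmatched), and 39397 rows to symbols of a RefSeq gene table of GRCm38. Genes were filtered with filterByExpr (minimum count 10) and compared with edgeR 4.0.16 (R 4.3.3; TMM, robust quasi-likelihood test, Benjamini-Hochberg over 17438 genes, called at 0.05, two-sided). SEs come from that fit. CPM use TMM-scaled totals, and log2 CPM a prior count of 2. The fit was tested on simulated data. Alternatives used DESeq2 1.42.0, limma-voom (limma 3.58.1) and other scalings, filters, terms and libraries. The genes, the pathway and marker lists and the naming rules were chosen with earlier results of these data known. The rule named all 10 genes, the neighbours, the 5 genes nearest in pattern, and 2 or 3 genes with the smallest p-values per sublist. Gm39583 was singled out after its values were seen. PCR duplicates were not distinguishable, so counts are not independent molecules.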

Additional observations from a re-analysis of the deposited data

Results flagged for a closer look

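In 9 cases a single library stood apart from the other 3 of its group by Dixon's test at 95%, among 84 groups of 4 libraries examined, where chance gives about 1 in 20. Of the genes at the centre of the report, eGFP replicate 1 was high for Gm39584, at 63.6 CPM with the next library at 32.1 CPM. For Tgfa, eGFP replicate 3 was high, at 59.1 CPM against 36.7 CPM, and for Lrig1, Lpcat3 replicate 1 was, at 27.6 CPM against 24.1 CPM. Among pathway genes, eGFP replicate 3 was high for Btc (17.9 CPM, next 7.78 CPM) and for Stat5a (41.6 CPM, next 27.7 CPM), and eGFP replicate 4 for Plcg1 (59.1 CPM, next 44.8 CPM). Among the genes nearest to Egfr in pattern, eGFP replicate 4 was high for Cyp2d34 (3.47 CPM, next 2.38 CPM), Cyp2d9 (559 CPM, next 248 CPM) and Cyp2d12 (18.0 CPM, next 8.41 CPM).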

How the results depend on the processing

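The 1 call across all genes, that of Egfros, was not stable. There were 3 calls with library totals in place of TMM, 0 with no filter on low counts, 51 with DESeq2, 2 without robust estimation, 0 with the replicate block, 0 with a term for the code division, 0 to 7 on leaving out each library in turn, and 0 without both libraries numbered 3. The titles' replicate numbers share no stated source. Same-numbered libraries deviated with correlations of 0.285, -0.0689, -0.400 and -0.124, and 1 of 4 Lpcat3 libraries correlated best with its own number. The pathway and neighbour counts stayed at 0 under every alternative run. Where no gene was called across all genes, that outcome was fixed in advance. The mean ratio of Egfros to Egfr counts was 5.28-fold higher in the Lpcat3 group, 4.07 to 7.00 on leaving out each library, 4.59 from group sums and 4.91 without both libraries numbered 3. Egfros, Gm39584, Erbb2 and Errfi1 stayed above 0 and Hbegf below 0 wherever they were tested (Hbegf was not under the filter of 1 CPM in 4 libraries), while Erbb3, Tgfa, Lrig1 and, by -2.9e-05, Egfr changed sign in at least 1 alternative. Library totals moved the median gene by -0.12. Changes of sign among the other named genes were Erbb4 (-0.02), Btc (0.03) and Nrg1 (0.03) without both libraries numbered 3, Sec61g (-0.06) with library totals, and, on leaving out single libraries, Fbxo48 (-0.60 to 0.06, above 0 without eGFP replicate 1) and Cnrip1 (-0.13 to 0.16, above 0 without eGFP replicate 1 or Lpcat3 replicate 2). Further ones were Cnrip1 (0.11), C6 (-0.07) and Cyp2d12 (-0.0024) when the code division was included. The cause of these changes was not tested. Low counts limit Hbegf, Erbb2, Areg and Gm39583.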
